A study of Mus musculus with 4 samples.

Results

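Organiser and anterior genes are the 7 genes Lhx1, Otx2, Hhex, Cer1, Dkk1, Chrd and Nog, which act in the embryonic organiser, in the anterior visceral endoderm and in the tissue that forms the head. They were taken by name, and the MIXL1 peaks within 100 kb of each gene span were assigned to it, which gave 16 of the 9403 peaks on the 20 chromosomes analysed. The genes are 7 of 21523 protein-coding genes on those chromosomes. MIXL1, a transcription factor with a paired-type homeodomain, is made in the primitive streak. The FLAG libraries (2) came from chromatin precipitated with the anti-FLAG M2 antibody, which binds the FLAG tag on MIXL1, and the input libraries (2) from chromatin without an antibody. Both groups were mouse epiblast stem cells with an inducible Mixl1 gene, a pluripotent cell type that resembles the epiblast of the implanted embryo. They were maintained on irradiated feeder fibroblasts in medium with activin A at 20 ng/mL and bFGF at 10 ng/mL. Embryoid bodies from both were collected after 2 days in serum, the final 24 h of it with doxycycline at 1 µg/mL. All the libraries therefore carry induced Mixl1, uninduced cells were not analysed here, and the labels do not say how many clones or separate cultures were used. The single deposited peak list stands for all 4 libraries, so no value below has a replicate error, and the sequencing depth is unknown. A list of positions holds no expression value, so the labelled cell type could not be checked against markers.

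In the gastrulating mouse embryo, the organiser at the anterior end of the primitive streak and the anterior visceral endoderm pattern the head. They do so through transcription factors such as Lhx1, Otx2 and Hhex and through secreted proteins that block Wnt, BMP and Nodal signals, among them Dkk1, Cer1, Chrd and Nog. Homeodomain proteins of the paired type recognise TAAT cores in DNA and can bind 2 cores that face each other as a dimer.

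A peak lay within 100 kb of 7 of the 7 organiser and anterior genes, and 52.8% of all protein-coding genes also had at least 1 peak within this distance. Because the windows around long genes are larger and the spans of these 7 genes run from 1922 to 10960 bp, the share among protein-coding genes of at most 15 kb, 46.8%, is the closer comparison. The number of peaks within 100 kb was 5 at Lhx1, 3 at Otx2, 3 at Nog, 2 at Dkk1, and 1 each at Hhex, Cer1 and Chrd. Their mean was 2.29 peaks per gene, against 1.17 over all protein-coding genes, and their median was 2 against 1. Protein-coding genes of at most 15 kb had a mean of 0.973 and a median of 0. The peaks just inside the 100-kb limit lay 90.7 and 93.5 kb from Nog, and the next ones outside it lay 120 kb from Lhx1 and 121 kb from Chrd. No test was made, since the genes were listed with earlier results of these data known and the list has no replicates.

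**Figure D1:**
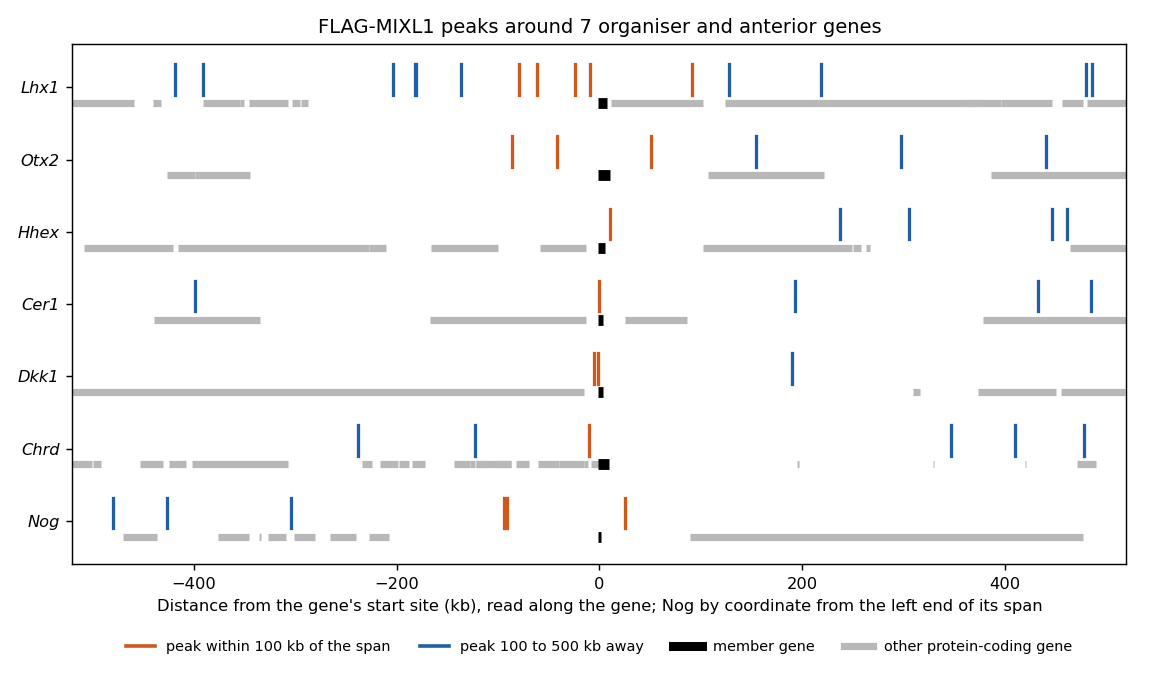
Peaks (vertical lines, orange within 100 kb of the gene span and blue from 100 to 500 kb) and protein-coding genes (bars, member black and others grey) around the 7 genes, by distance in kb from the start site, read along each gene, with Nog by coordinate because no strand was given for it. The 5 peaks near Lhx1 include 4 on its upstream side, while the 1 peak near Cer1 lies over the gene start.

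**Figure D2:**
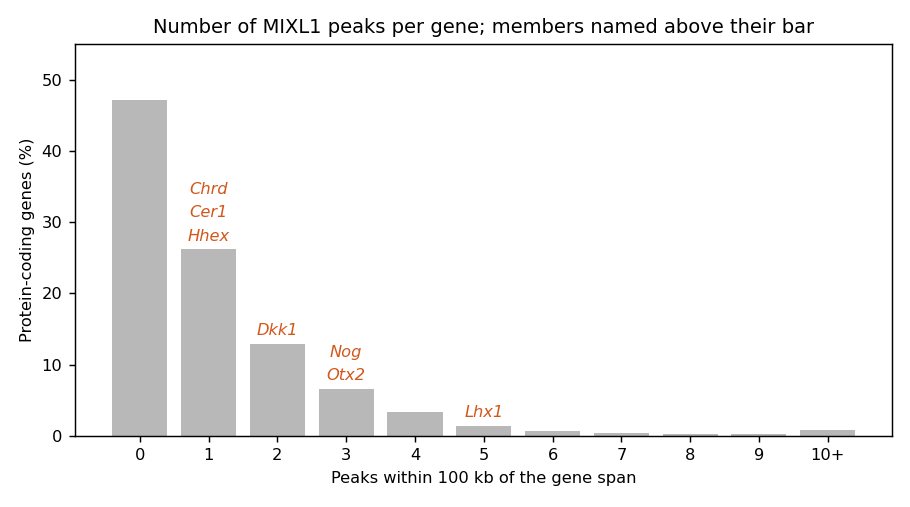
Share of protein-coding genes (bars, %) by the number of peaks within 100 kb of the gene span, with the 7 members named above the bar of their own number. Lhx1 stands at 5 peaks, a number that 3.84% of protein-coding genes reach or exceed.

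Among the transcription factors, Lhx1 had the most peaks. Lhx1 encodes a LIM-homeodomain protein needed for head formation, and lies on the minus strand of chromosome 11 (mm10, 84517975 to 84525534). Of its 5 peaks within 100 kb, 4 lay upstream of its start site, at 8.96, 23.6, 61.5 and 78.5 kb, and 1 lay downstream at 84.0 kb from the span. At least 5 peaks within 100 kb were found at 3.84% of protein-coding genes. The nearest peak (84534491 to 84534853, 363 bp wide) was centred in Lhx1os, a noncoding RNA gene adjacent to the start of Lhx1. The upstream peaks at 84549166 to 84549753 and 84587043 to 84587583 were 588 and 541 bp wide and were centred in no annotated gene. The most distant of the 4 (84604060 to 84605191) was the widest at 1132 bp, and 9.0% of all peaks were at least as wide. For these 4 peaks Lhx1 was the nearest protein-coding gene. The downstream peak (84433532 to 84433938, 407 bp) lay inside the neighbouring gene Aatf. Peaks continued beyond the limit, to 9 within 200 kb and 15 within 500 kb of Lhx1. That was the highest number within 500 kb among the 7 genes, of which Dkk1 had 3 and the others 5 or 6. Outside 100 kb, however, only 1 of these further peaks, 136 kb upstream, had Lhx1 as its nearest protein-coding gene.

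Otx2 encodes a bicoid-type homeodomain protein of the anterior epiblast, visceral endoderm and forebrain, and lies on the minus strand of chromosome 14 (48656781 to 48667644). It had 3 peaks within 100 kb, a number that 13.7% of protein-coding genes reach, but its nearest peak was the most distant among the 7 genes. That peak (48616401 to 48616964, 564 bp) lay 39.8 kb from the span on the downstream side. On the upstream side were peaks at 41.8 kb (48709465 to 48709792, 328 bp) and 86.0 kb (48753624 to 48754457, 834 bp). Both were centred in Otx2os1, a noncoding RNA gene beyond the start of Otx2. Otx2 was the nearest protein-coding gene of all 3, with the next nearest, Tmem260, 56.2 to 193 kb from them. The peaks of Otx2 therefore flanked the gene at a distance, with none over its span or within 25 kb.

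Hhex encodes a homeodomain protein of the anterior visceral endoderm and anterior definitive endoderm, and lies on the plus strand of chromosome 19 (37434841 to 37440731). Its single peak within 100 kb (37444540 to 37445359, 820 bp) lay 3.81 kb beyond the end of the gene and 9.70 kb from its start site. The next nearest protein-coding gene, Kif11, which encodes a mitotic kinesin, was 22.7 kb from this peak. The peak stood alone, since the next peak of any kind was 226 kb away.

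The secreted antagonists included the 2 genes with a peak at or beside the start site. Cer1 encodes Cerberus-like 1, a secreted inhibitor of Nodal and BMP ligands, and lies on the minus strand of chromosome 4 (82881751 to 82885151). Its peak (82884992 to 82886467) was 1476 bp wide, and 4.46% of all peaks were at least as wide. It covered 1316 bases before the start site and 159 bases after it, with its centre 578 bases upstream. A peak lay over an annotated start site in 1.05% of the protein-coding genes for which the promoter table gives one (182 of 17274), and in 1 of the 6 organiser and anterior genes in that table. The nearest other protein-coding gene, Frem1, which encodes an extracellular matrix protein, was 11.5 kb from this peak. No further peak was found within 189 kb of Cer1, so the peak over its start was its only one in the window.

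Dkk1 encodes a secreted inhibitor of the Wnt co-receptors Lrp5 and Lrp6, and lies on the minus strand of chromosome 19 (30545876 to 30549496). Its 2 peaks both lay upstream, at 0.596 kb (30550092 to 30550579, 488 bp) and 4.86 kb (30554356 to 30554931, 576 bp) from the start site. They were 3.78 kb apart. Prkg1, a long gene for a cyclic-GMP-dependent kinase, lies 13.9 and 9.56 kb from them, so Dkk1 was the nearest protein-coding gene of both. On the downstream side the nearest peak was 186 kb away.

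**Figure D3:**
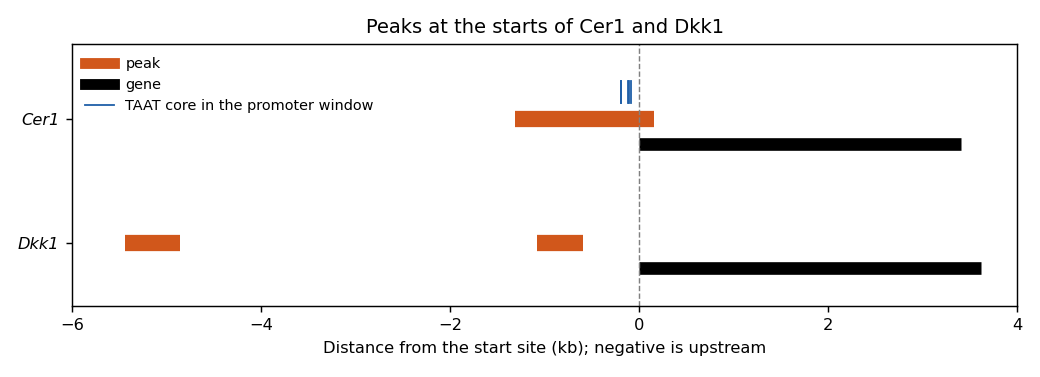
Peaks (orange), gene spans (black) and TAAT cores on either strand in the promoter window (blue lines) at Cer1 and Dkk1, by distance in kb from the start site, with upstream positions negative. The Cer1 peak of 1476 bp spans the start site and its 5 TAAT cores, while the 2 Dkk1 peaks end before the start site and its window holds none.

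The 250 bases before the start site are shown for 4 genes: Cer1, whose peak covers them all, Dkk1, whose nearest peak begins 0.596 kb upstream, and Otx2 and Lhx1, whose start sites lie 41.8 and 8.96 kb from a peak. Sequences are from RefSeq (GRCm38.p6), written 5′ to 3′ along the gene, and capitals mark TAAT on either strand, which reads ATTA on the other one. They lie at chr4:82885152-82885401 (Cer1), chr19:30549497-30549746 (Dkk1), chr14:48667645-48667894 (Otx2, the outermost of its 4 listed start sites) and chr11:84525535-84525784 (Lhx1), all on the minus strand.
Cer1: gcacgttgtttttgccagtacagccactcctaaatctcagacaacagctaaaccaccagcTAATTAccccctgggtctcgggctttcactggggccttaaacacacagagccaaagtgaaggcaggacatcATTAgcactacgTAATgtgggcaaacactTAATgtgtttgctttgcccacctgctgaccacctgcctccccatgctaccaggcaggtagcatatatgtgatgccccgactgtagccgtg
Dkk1: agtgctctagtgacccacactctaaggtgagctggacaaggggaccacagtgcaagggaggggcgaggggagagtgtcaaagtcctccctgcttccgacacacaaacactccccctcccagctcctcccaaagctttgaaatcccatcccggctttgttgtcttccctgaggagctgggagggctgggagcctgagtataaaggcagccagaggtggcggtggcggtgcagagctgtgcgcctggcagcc
Otx2: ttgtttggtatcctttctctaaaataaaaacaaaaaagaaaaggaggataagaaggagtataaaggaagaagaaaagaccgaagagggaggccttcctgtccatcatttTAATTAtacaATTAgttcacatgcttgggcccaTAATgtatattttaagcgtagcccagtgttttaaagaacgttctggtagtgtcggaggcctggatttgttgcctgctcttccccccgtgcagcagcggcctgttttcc
Lhx1: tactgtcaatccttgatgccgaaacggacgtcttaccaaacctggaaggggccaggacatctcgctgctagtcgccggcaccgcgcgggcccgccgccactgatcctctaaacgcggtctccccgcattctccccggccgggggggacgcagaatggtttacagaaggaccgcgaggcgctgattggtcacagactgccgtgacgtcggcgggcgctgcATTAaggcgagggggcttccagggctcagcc

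The Cer1 stretch under the peak held 5 TAAT cores, beginning 190, 188, 119, 107 and 90 bases before the start site. The first pair overlaps as the palindrome TAATTA. Windows from 250 bases before to 50 bases after each start site of protein-coding genes were searched on both strands for TAATTA, for TAAT and ATTA with 2 or with 3 bases between them, for GGATTA, which bicoid-type factors such as Otx2 bind, and for TAAT alone. A TAATTA counts as 2 TAAT, and a GGATTA as 1. A gene with several start sites gave several windows, so the 21045 windows came from 17274 genes. Windows of the same gene can overlap, and a match in the shared bases is then counted more than once. TAATTA was present in 16.4% of the 195 windows with a peak over the start site, and in 4.47% of all 21045 windows. Those 195 windows belonged to 182 genes, and in 81 of these genes a whole window lay under a peak. In the rest, a counted match can lie outside the peak. TAAT and ATTA with 3 bases between them were present in 2.56% of the windows with a peak (5 of 195) and in 0.366% of all windows, and with 2 bases between them in 0 of 195 and in 0.309% of all windows. GGATTA was present in 7.18% of the windows with a peak and in 6.39% of all windows, and TAAT in 76.4% and in 51.7%. At least 5 TAAT cores, the number in Cer1, were present in 5.68% of all windows, and the median number was 2 in windows with a peak over the start site and 1 in all windows. The windows with such a peak were also poorer in G and C, with a median of 50.3% against 56.7% over all windows, and the part of base composition in the motif shares was not tested. Cer1 was at 51.7%.

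Among the other members, TAAT cores were also found at start sites far from any peak. The outermost Otx2 window held 1 TAATTA and 5 TAAT cores with its nearest peak 41.8 kb away. Another Otx2 window, at the start site 48665109, held 3 TAATTA, 10 TAAT cores and 1 GGATTA with the nearest peak at 44.4 kb. The windows of Dkk1, Hhex and Chrd held no TAAT core, and that of Lhx1 held 1. The G and C content was 60.7% in the Dkk1 window, 75.7% in the Hhex window, 78.3% in the Chrd window and 65.7% in the Lhx1 window. TAAT and ATTA with 2 or 3 bases between them were found in none of the 9 member windows. Sequence of the peaks away from start sites was not used here.

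The BMP antagonists Chrd and Nog had peaks farther out. Chrd encodes chordin, which binds BMP ligands outside the cell, and lies on the plus strand of chromosome 16 (20731425 to 20742384), with 8 other protein-coding genes within 100 kb. Its single peak (20722495 to 20722943, 449 bp) lay 8.48 kb upstream of the span and 10.2 kb from the start site in the promoter table. This peak was 0.223 kb from Polr2h, a gene for an RNA polymerase subunit, so Chrd was not its nearest protein-coding gene. Thpo, which overlaps the start of Chrd, and Clcn2 were also nearer to the peak than Chrd was. The other 6 genes each had at least 1 peak to which they were the nearest protein-coding gene. The share of all protein-coding genes with such a peak is not given here, so this count has no background beside it.

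Nog encodes noggin, also a BMP-binding antagonist, and lies on chromosome 11 (89300638 to 89302559) in a stretch with only 1 other protein-coding gene, Ankfn1, within 100 kb. It had 3 peaks within 100 kb, like Otx2. The nearest (89326011 to 89326346, 336 bp) lay 23.5 kb from the right end of the span, towards Ankfn1, 63.7 kb away from that gene. The other 2 lay to the left, at 90.7 kb (89209278 to 89209889, 612 bp) and 93.5 kb (89206316 to 89207125, 810 bp), only 2.15 kb apart. Nog was the nearest protein-coding gene of all 3.

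Taken by distance, the nearest peak was at 0 kb for Cer1, 0.596 kb for Dkk1, 3.81 kb for Hhex, 8.48 kb for Chrd, 8.96 kb for Lhx1, 23.5 kb for Nog and 39.8 kb for Otx2. The median was 8.48 kb, against 89.3 kb over all protein-coding genes and 113 kb over those of at most 15 kb. The share of protein-coding genes with a peak at least as near was 12.6% for Cer1, which includes all genes with a peak over any part of the span, and 33.6% for Otx2. A peak lay within 10 kb of 5 of the 7 genes and of 19.1% of all protein-coding genes, and within 25 kb of 6 of the 7 and of 27.2%. The order of the genes by distance differed from that by number of peaks, since Otx2 and Nog had 3 peaks each but the most distant nearest peak, whereas Cer1 and Hhex had 1 close peak each.

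**Figure D4:**
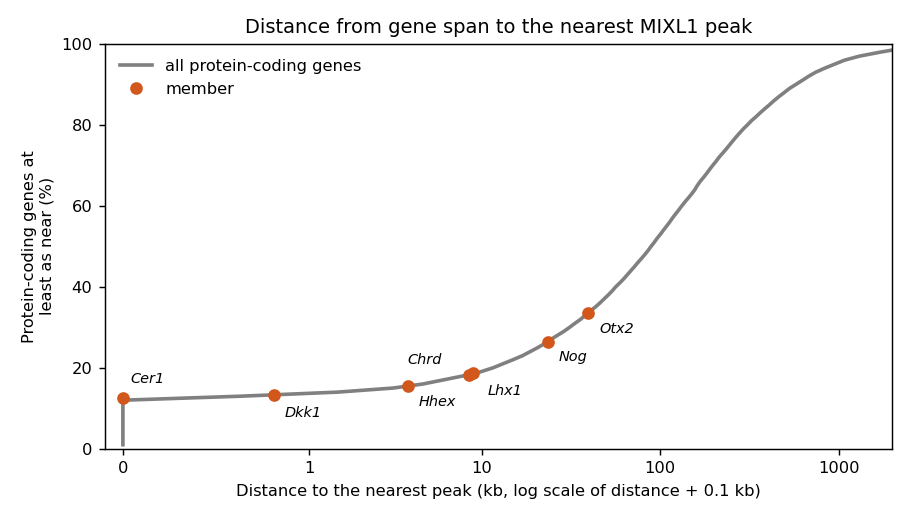
Cumulative share of protein-coding genes (grey line, %) by the distance in kb from the gene span to the nearest peak, on a log scale of the distance plus 0.1 kb, with the 7 members as orange points. The points run from Cer1 at 0 kb to Otx2 at 39.8 kb, where 33.6% of protein-coding genes are at least as near.

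Peak density around the genes fell with distance. The 7 genes had 11.1 peaks per Mb within 100 kb of the span and 5.36 per Mb from 100 to 500 kb. Over all protein-coding genes, whose windows overlap, the densities were 4.71 and 4.94 per Mb. Within 50 kb the mean was 1.43 peaks per member against 0.684 per protein-coding gene, and within 500 kb it was 6.57 against 5.13.

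The 16 peaks were 328 to 1476 bp wide with a median of 570 bp, against a median of 485 bp over all 9403 peaks. Of the 16, 2 (12.5%), at Cer1 and Lhx1, were 1 kb or wider, the same share as the 12.5% of all peaks. For 14 of the 16 the member was the nearest protein-coding gene, as was the case in 32.2% of the 25199 pairs of any protein-coding gene and a peak within 100 kb of it. This share depends on gene density, since a peak among many genes forms many pairs in which most genes are not the nearest. Other protein-coding genes within 100 kb numbered 8 at Chrd but only 1 or 2 at each other member. Of the 13 peaks at genes with a listed strand, 9 lay upstream, 3 downstream and 1 over the gene start. Over all such pairs with a listed strand, 40.9% of peaks lay upstream, 41.8% downstream and 17.3% over the gene span. The promoter table gives no strand for Nog, so its 3 peaks were not sorted this way. By their centres, 12 of the 16 lay in no annotated gene, 3 in long noncoding RNA genes and 1 in a protein-coding gene. Of all 9403 peaks, 40.4% were centred in no annotated gene, 9.99% in long noncoding RNA genes alone and 45.9% in protein-coding genes. These differences were not tested. The shares over gene spans and in protein-coding genes come from genes of all lengths, whereas the longest of the 7 spans is 11 kb, so they are not a like comparison. Another peak lay within 10 kb of 4 of the 16 (25%), namely the pairs at Dkk1 and Nog, and of 30.3% of all peaks. None of the 7 genes lies on chromosome 12, which held 16.4% of the peaks.

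LIM-domain partners and relatives of Lhx1, other organiser and anterior factors, other antagonists and pathway genes had peaks nearby in shares of 57.1 to 65.2% by list. These shares were closer to the 52.8% of all protein-coding genes, and were not tested. Spans in these lists ran from 2.03 kb for Gsc to 364 kb for Ldb2. Neither 52.8% nor the 46.8% of genes of at most 15 kb is therefore a like comparison for every list. Of 19 LIM-domain partners and relatives of Lhx1, 11 (57.9%) had a peak within 100 kb, with a median of 1 peak. Lhx3, a pituitary and motor neuron LIM-homeodomain gene, had 3 peaks, as had Ssbp3, and Ldb2 had 2, as had Lhx4, Lmo4 and Lmx1b. Ssbp3 and Ldb2 encode cofactors of LIM-homeodomain proteins, and in these 3 genes the nearest peak lay over the span, which is 138 and 364 kb long for the cofactors. The gene of the main Lhx1 cofactor, Ldb1, had its nearest peak at 217 kb, and that of the close relative Lhx5 was at 33.6 kb.

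Of 21 other transcription factors of the organiser, the node, the anterior visceral endoderm or the forebrain, 13 (61.9%) had a peak within 100 kb. Gsc, the homeobox gene of the organiser, led with 10 peaks. It lies on chromosome 12, which held 16.4% of the peaks, and whether that bears on the Gsc number was not tested. Hesx1, a paired-type repressor of the anterior endoderm and forebrain, had 9 peaks with the nearest over its span, and Eomes, a T-box gene of the streak and definitive endoderm, had 4. Otx1, the closest relative of Otx2, had its nearest peak at 582 kb. The wider group thus held genes with more peaks than any of the 7 members and genes with none.

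Among other antagonists of BMP and Nodal, 8 of 14 (57.1%) had a peak within 100 kb, led by the Nodal inhibitors Lefty2 and Lefty1 with 3 each and the BMP antagonist genes Nbl1 and Grem1 with 2 each. Lefty1 and Lefty2 are neighbours on chromosome 1, and the nearest peak of each lies within 100 kb of both, so their numbers share peaks. Among other Wnt antagonists, 10 of 17 (58.8%) had 1, led by Dkk3 and Kremen1, whose product is a Dkk1 receptor, with 3 each, and Frzb, which encodes a secreted Frizzled-related protein, with 2, as had Wif1 and Sfrp5. Of the receptors, ligands and proteases on which the antagonists act, 15 of 23 (65.2%) had a peak, led by the receptor gene Acvr1 with 5 and the ligand genes Bmp7 and Gdf3 with 3 each. The median was 1 peak in each of these lists, as over all protein-coding genes. Of 15 genes of fibroblasts, the feeder cells of the culture, 5 (33.3%) had a peak, with a median of 0, led by Prrx1 with 4, Thy1 with 3 and Fbn1, Col1a1 and Col5a1 with 1 each. Among the 109 genes of these lists, those most like Lhx1 in the number of peaks within 100 kb of this 1 peak list were Acvr1 with 5, Eomes with 4 and Prrx1 with 4.

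**Figure D5:**
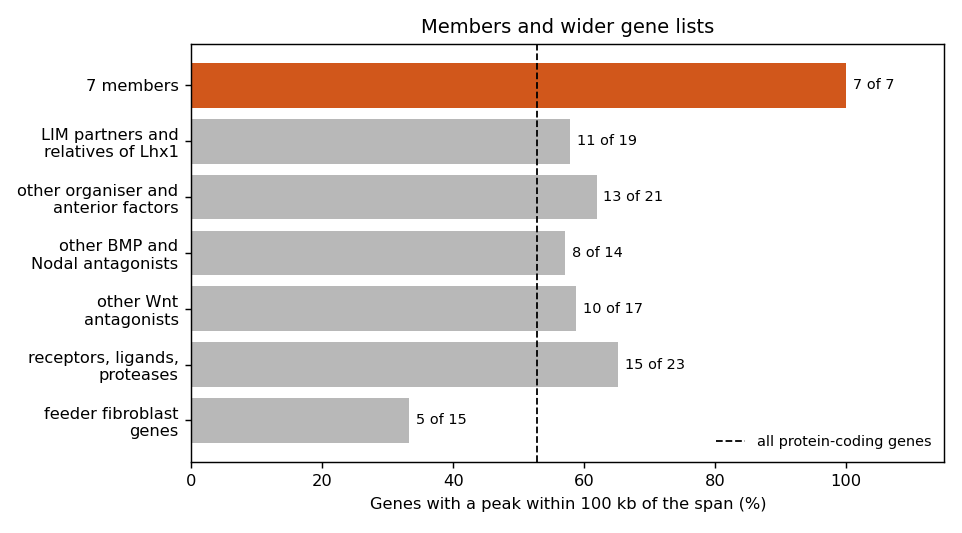
Share of genes with a peak within 100 kb of the span (bars, %) for the 7 members and 6 wider gene lists, with the number of genes beside each bar and the share over all protein-coding genes as a dashed line at 52.8%. The 5 lists of partners and relatives, other factors, other antagonists and pathway genes run from 57.1 to 65.2%, and the fibroblast list is at 33.3%.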

How the data were processed

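FLAG-MIXL1 ChIP-seq and input libraries entered only through 1 peak list that the authors deposited, with the chromosome, start and end of each peak and no score or signal. The tools named in the submitters' processing notes are MACS2, Bowtie2, SAMtools and CASAVA 1.8.2, with build mm10. The peak threshold, any filters, and how input and replicates were combined are not given in the sources used.

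Positions, printed 1-based, were set against RefSeq gene spans of GRCm38.p6, without genes placed in the first 3 Mb of a chromosome. Distances run from the span to the nearest edge of a peak, and are 0 on overlap. Strand and start sites came from the RefSeq promoter table, which matched 6 of the 7 members. Motifs were planned for peaks too, but no genome sequence was used here. The interval code was tested on simulated data. Tools were Python 3.11.15, numpy 2.4.6, pandas 2.3.3, scipy 1.17.1 and matplotlib 3.10.9.

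The members and lists were chosen with earlier results of these data known. Named genes are all members, from each list at most 3 with the highest peak numbers (ties by the nearer peak, with tied genes also given), the 3 most like Lhx1, and genes that share a member's peaks. Ldb1, Lhx5 and Otx1 were added after their values were seen.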

Additional observations from a re-analysis of the deposited data

How the results depend on the processing

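At least 1 peak was found for 7 of the 7 genes with windows of 50, 200 and 500 kb, with peak centres, for 6 of the 6 genes with an annotated start site in the promoter table when that replaced the span, and for 6 of the 7 with the wider 50% of the peaks and when a peak counted only for its nearest protein-coding gene. Chrd was the gene without a peak in both of the last settings. Over all protein-coding genes, 37.5% had a peak within 50 kb, 70.3% within 200 kb and 88.1% within 500 kb. The count of 7 of 7 at 500 kb is thus close to the share of all genes. For the settings other than window size, the share over all protein-coding genes is not given here. The 16 peaks became 10 with the 50-kb window and 46 with the 500-kb window, by construction of the windows. With the wider 50% of the peaks, width standing in for a score, the median distance to the nearest peak was 23.6 kb in place of 8.48 kb. The nearest peaks of Lhx1 (363 bp), Chrd (449 bp) and Nog (336 bp) were too narrow to enter. In that setting Lhx1 had 3 peaks, and the nearest peak was at 121 kb for Chrd and 90.7 kb for Nog. The background share was 53.8% without predicted genes and 46.8% for genes of at most 15 kb, the last chosen after the data were seen, as was the search for TAAT alone. Of 68 values of single genes under an alternative, 49 stayed within 1.5 times the main value and 19 moved by more, 11 of them through the size of the window.

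No paired analysis was possible because the list holds no values per library. For the same reason the settings that leave out a replicate were not run. The list gives no scores or depth, so weak peaks cannot be told from strong ones, and binding below the authors' threshold is not seen.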
